A study of Mus musculus with 9 samples.

Results

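The genes described here build, trim and sulfate the sugar chains of the intestinal epithelium: glycosyltransferases, sialidases and carbohydrate sulfotransferases. They were chosen by symbol, as the genes whose names start with Galnt, Gcnt, B3gnt, B3gal, B4gal, St3gal, St6gal, St8sia, Fut, Neu or Chst, the shorter stems being followed by a number. The array held a probe set for 94 such symbols. Of these, 60 had a signal above the filter level and are the members, among 12941 genes tested in all, while 34 stayed below it. The filter level was each array's 40th percentile of signal, which lay between 25.9 and 32.0, and a gene passed where its probe set exceeded it on at least 3 of the 9 arrays.

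The samples were small intestinal organoids of the mouse, three-dimensional epithelial structures grown from stem cells that also form the differentiated cell types. Of 9 arrays, 3 held RNA of untreated organoids, 3 of organoids given 20 uM of an inhibitor of the TGF-beta receptor, and 3 of organoids given 0.04 ng/mL of the ligand TGF-beta1. Both treatments started on day 1 and lasted 5 days of a culture of 6 days, according to the labels. The sources used here do not give the inhibitor's name, a vehicle, the origin of the cultures or a batch, and they do not say whether replicates were separate cultures. The p-values therefore set differences between groups against the spread of arrays within groups, and that spread could be technical only.

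Mucin-type O-glycans begin when a polypeptide N-acetylgalactosaminyltransferase places a sugar on serine or threonine. The chain is then branched by N-acetylglucosaminyltransferases, lengthened by alternating galactose and N-acetylglucosamine, and ended by fucose, sialic acid, N-acetylgalactosamine or sulfate. In the intestine such chains make up most of the mass of the mucins and of the glycocalyx of enterocytes, and the terminal sugars serve as food and as attachment sites for gut bacteria. Sialidases remove terminal sialic acid again.

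The arrays had median signals of 46.1 to 57.9 and the same trimmed mean, 350.0. No array repeated another. The log2 ratio of the 3 prime to the 5 prime control probe set of beta-actin, a measure of RNA integrity, was 0.37 to 0.43 on untreated, 0.18 to 0.24 on inhibitor and 0.40 to 0.58 on ligand arrays. For Gapdh it was -0.29 to -0.25 on all of them. Of 8 epithelial markers all 8 passed the filter, whereas Col1a1, Col3a1, Dcn and Lum of fibroblasts, Ptprc, Cd3e, Cd79a and Itgam of leukocytes and Pecam1, Cdh5 and Emcn of endothelium exceeded the filter level on no array. The other 2 of 6 fibroblast markers, Col1a2 and Pdgfra, and the other 1 of 4 endothelial markers, Kdr, passed near it and were called in no comparison. Their lists summed to 94.8 to 120.8 untreated, 101.3 to 156.3 with inhibitor and 124.6 to 148.7 with ligand for fibroblasts, and to 65.8 to 78.2, 68.4 to 87.1 and 53.7 to 76.7 for endothelium. Sox10 of glia passed as well, at 29.7 to 67.0 untreated, 63.1 to 126.8 with inhibitor and 15.8 to 74.5 with ligand, and was not called. The other 3 of 7 leukocyte markers passed it: Csf1r and Cd68 rose by 0.92 and 0.66 with the inhibitor and Lyz2 fell by 0.69, and their summed signal with the rest of the list was 1300 to 1503 untreated, 996.0 to 1126 with inhibitor and 1499 to 2329 with ligand. Markers of epithelial cell types moved with the treatments. The summed signal of 5 stem cell markers was 19603 to 21616 untreated, 5281 to 5719 with inhibitor and 24637 to 27602 with ligand. All 5 were lower with the inhibitor and 3 higher with the ligand. Olfm4 made up much of that sum, with means of 12861, 819.5 and 14648. It changed by -3.96 with the inhibitor, and Ascl2, Axin2, Lgr5 and Smoc2 by -1.74, -1.32, -0.68 and -0.58. For 9 enterocyte markers, of which 4 were higher with the inhibitor and 5 lower with the ligand, the summed signal was 71174 to 79278, 77289 to 96340 and 54725 to 61180, in the same order. For 10 goblet cell markers, of which 6 were lower with the inhibitor and 2 higher and 2 lower with the ligand, it was 35876 to 42787, 27166 to 32265 and 34800 to 42479. For 3 cell division markers, all called lower with the inhibitor, it was 10872 to 11333, 5963 to 6241 and 11618 to 12995. For 6 Paneth cell markers, of which 3 were lower with the inhibitor and 2 higher and 1 lower with the ligand, it was 35378 to 45022, 28602 to 35140 and 41674 to 58744. The 4 tuft cell markers, of which 1 was lower with the inhibitor and 2 higher with the ligand, summed to 169.9 to 197.7, 111.6 to 127.5 and 377.3 to 391.0. The part of these markers in the changes below was not tested, and in such bulk RNA fewer cells of a type and less RNA per cell cannot be told apart.

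A change is said to be called, and a gene to have risen or fallen, where limma's adjusted p over all 12941 genes was under 0.05. Changes are differences of mean log2(signal + 16) with their standard error, and folds are on that scale, which understates changes of dim genes. Both treated groups are compared with the same 3 untreated arrays, so those comparisons are not independent of each other. Ligand against inhibitor does not use the untreated means. It is still the difference between those changes and shares their treated arrays and fitted spread, so it is not separate support for them.

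Receptor inhibition raised 20 of the 60 members and lowered 9, so 48.3% were called, against 44.9% of all genes tested. The shares by direction were 33.3% higher and 15.0% lower among members and 21.1% and 23.9% among all genes. The median log2 change was 0.18 over the members and -0.01 over all genes, and 15 called members changed at least 1.5-fold, compared with 17.6% of all genes. Signals of the inhibitor and untreated arrays did not overlap for 36 members, compared with 56.0% of all genes.

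With the ligand 9 members rose and 10 fell, 31.7% in all, against 24.0% of all genes. Among all genes 14.7% rose and 9.28% fell. The median change was 0.09 over members and 0.05 over all genes, 5 called members changed at least 1.5-fold, a share near the 8.66% of all genes, and ligand and untreated signals were separate for 27 members against 38.6% of all genes. In the direct comparison of ligand with inhibitor 17 members were higher and 21 lower with the ligand, 63.3% in all, against 55.3% of all genes, of which 32.4% were higher and 22.9% lower. The median difference was -0.13 over members and 0.07 over all genes. There 21 called members differed at least 1.5-fold, compared with 27.0% of all genes, and the signals were separate for 38 members against 60.6% of all genes. These splits depend on the scaling. When each array was centred on its median, the all-gene median of ligand against untreated moved from 0.05 to -0.06 and that of ligand against inhibitor from 0.07 to -0.09, and the members then split into 5 higher and 12 lower against untreated and 10 higher and 28 lower against inhibitor. With quantile normalization the splits were 5 higher and 10 lower, and 11 higher and 24 lower.

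**Figure D1:**
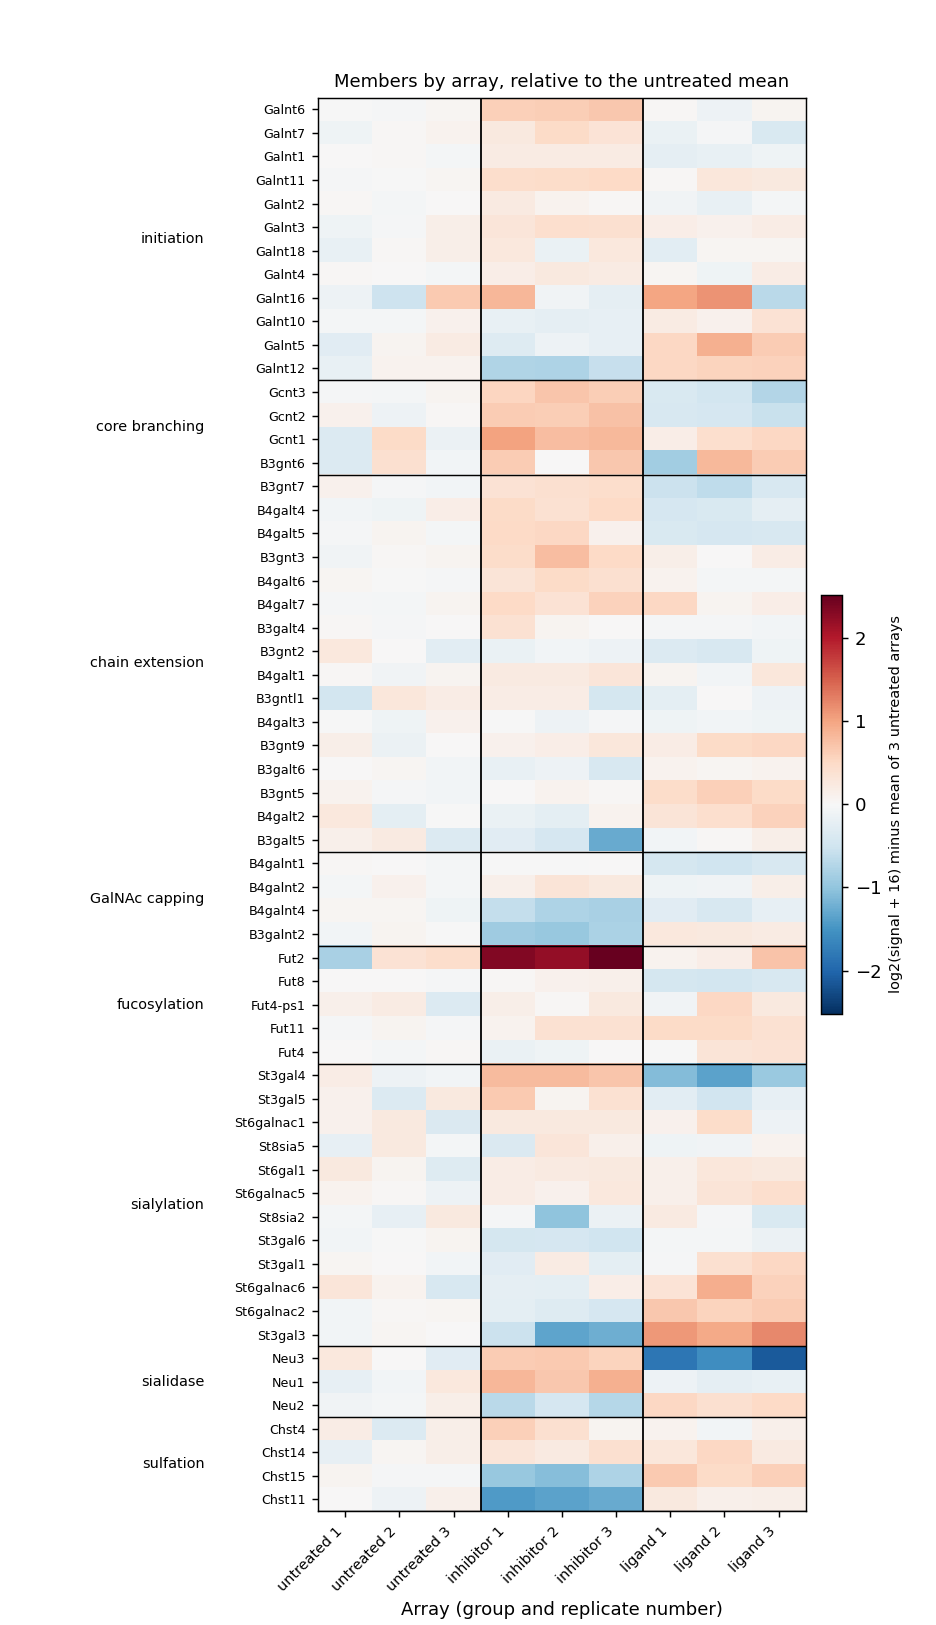
Each row is 1 of the 60 members above the filter, grouped by role, and each column 1 of the 9 arrays. Colour gives log2(signal + 16) minus the mean of the 3 untreated arrays, red for higher and blue for lower. Fut2 is the darkest red row on the inhibitor arrays, where it rose by 2.36, and Neu3 the darkest blue row on the ligand arrays, where it fell by 1.84.

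The 5 members with the largest difference between ligand and inhibitor arrays were Neu3, St3gal3, Fut2, St3gal4 and Chst11. RefSeq promoter windows (build GRCm38.p6) were held for 42 members, while 18 members, Fut2 among them, had no entry. The windows of the other 4 are printed because these genes moved furthest and in different directions. Each is the 250 bases upstream of the annotated transcript start, 5′ to 3′ on the gene's strand, and capitals mark matches to the motifs given below.
Neu3, chr7:99828418-99828667, minus strand: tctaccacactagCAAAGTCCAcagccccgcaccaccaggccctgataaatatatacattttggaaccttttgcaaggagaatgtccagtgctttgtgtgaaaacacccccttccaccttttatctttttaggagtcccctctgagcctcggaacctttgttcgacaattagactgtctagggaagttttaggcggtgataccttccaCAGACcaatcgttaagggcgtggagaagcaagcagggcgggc
St3gal3, chr4:118134947-118135196, minus strand: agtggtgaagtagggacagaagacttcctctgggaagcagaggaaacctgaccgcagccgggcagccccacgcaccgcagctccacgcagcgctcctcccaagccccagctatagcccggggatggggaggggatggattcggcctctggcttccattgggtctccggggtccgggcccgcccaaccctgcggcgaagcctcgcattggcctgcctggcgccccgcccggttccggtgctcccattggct
St3gal4, chr9:35116865-35117114, minus strand: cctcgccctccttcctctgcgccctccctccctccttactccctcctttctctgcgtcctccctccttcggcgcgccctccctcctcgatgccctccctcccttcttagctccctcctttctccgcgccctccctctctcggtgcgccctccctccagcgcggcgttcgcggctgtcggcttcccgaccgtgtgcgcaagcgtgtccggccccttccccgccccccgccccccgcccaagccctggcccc
Chst11, chr10:82985247-82985496, plus strand: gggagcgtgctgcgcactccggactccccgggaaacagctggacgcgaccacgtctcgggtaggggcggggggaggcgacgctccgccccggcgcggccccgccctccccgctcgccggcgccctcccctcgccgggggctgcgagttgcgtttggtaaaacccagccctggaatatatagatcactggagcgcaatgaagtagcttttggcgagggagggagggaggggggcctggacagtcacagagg

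Both strands were searched for 4 motifs: the palindromic Smad element GTCTAGAC, the CAGA box CAGAC bound by Smads, the AP-1 site TGANTCA and the HNF4 element CAAAGTCCA. None of these motifs contains another. The Neu3 window held a CAGA box that starts 42 bases before the transcript start and an HNF4 element that starts 237 bases before it. None of the 4 motifs was in the windows of St3gal3, St3gal4 and Chst11. The CAGA box was in 42.2% of all 32851 promoter windows of this length and in 34.4% of the members' 61 windows, and the HNF4 element in 0.384% and 3.28% (2 windows). For the AP-1 site the shares were 6.75% and 8.2%, and for the Smad palindrome 0.167% and 0 windows. The windows of St3gal3, St3gal4 and Chst11 were rich in G and C, at 68.4%, 72.8% and 70% with 18, 25 and 26 CpG, and that of Neu3 held 49.2% with 7 CpG. The median over all windows was 52.4% and 6 CpG.

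Of 18 polypeptide N-acetylgalactosaminyltransferases, which start mucin-type O-glycans, 12 were measured. Receptor inhibition raised 6 and lowered 1, and the ligand raised 2. Over all genes tested the inhibitor raised 21.1% and lowered 23.9%, and the ligand raised 14.7% and lowered 9.28%, and the counts by role stand beside these shares. Galnt6 had signals of 987.3, 965.9 and 1027 untreated, 1517, 1543 and 1604 with inhibitor and 1012, 907.2 and 1048 with ligand. All inhibitor arrays stood above the others, while untreated and ligand arrays overlapped. The inhibitor raised it by 0.64 ± 0.07 (1.56-fold, adjusted p = 9.19e-06), and the ligand change was -0.01 ± 0.07 (adjusted p = 0.947).

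Galnt12, an enzyme of the digestive tract, went the other way. Its signals were 735.9, 896.9 and 901.3 untreated, 489.8, 481.2 and 555.6 with inhibitor and 1207, 1255 and 1266 with ligand. The 3 groups did not overlap. It fell by 0.71 ± 0.09 with the inhibitor (1.64-fold lower, adjusted p = 2.56e-05), rose by 0.55 ± 0.09 with the ligand (adjusted p = 5.32e-04) and was 2.40-fold higher with ligand than with inhibitor (1.26 ± 0.09, adjusted p = 7.40e-08).

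Galnt5 was the other initiation gene that rose with the ligand. It read 34.6, 48.3 and 55.2 untreated, 32.8, 40 and 37.0 with inhibitor and 72.5, 98.7 and 79.3 with ligand. The ligand arrays stood above all others. The rise was 0.69 ± 0.18 (adjusted p = 0.013), and the call was lost without untreated replicate 1 (adjusted p = 0.0606) or ligand replicate 2 (0.0577).

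The other inhibitor-raised members of this step were Galnt11, Galnt3, Galnt7, Galnt1 and Galnt4, by 0.47, 0.37, 0.36, 0.21 and 0.21. Galnt3 is the enzyme that glycosylates the hormone Fgf23, and Galnt7 and Galnt4 prefer peptides that already carry sugar. Galnt7 gave 2946, 3250 and 3411 untreated, 3804, 4485 and 4052 with inhibitor and 2849, 3140 and 2448 with ligand, with inhibitor arrays above all others (adjusted p = 0.00851). The Galnt3 rise (adjusted p = 0.00119) rests on its brightest probe set: the mean of its 3 probe sets gave a change of 0.05, and the difference between ligand and inhibitor turned from -0.21 to 0.22. That difference (adjusted p = 0.0273) also lost its call without inhibitor replicate 2 (0.0927) or 3 (0.0788) or ligand replicate 1 (0.056) or 2 (0.0785). Quantile normalization and no intensity trend ended it too. The Galnt4 rise was just under the threshold (adjusted p = 0.043). It was lost when any untreated or inhibitor array or ligand replicate 1 was left out, with adjusted p from 0.055 to 0.125. No filter, quantile normalization, median centring, a replicate block and no intensity trend also ended the call. The other Galnt4 probe set was called higher with the inhibitor, by 0.55 (adjusted p = 0.00303 over all probe sets). It was also lower with ligand than with inhibitor (-0.44, adjusted p = 0.00921 over all probe sets), where the brightest one was not called. Galnt4 overlaps the gene Poc1b. Galnt10, Galnt2, Galnt16 and Galnt18 were called in neither comparison with untreated. Galnt10 was higher with ligand than with inhibitor by 0.43 ± 0.10 (adjusted p = 0.00236), but another of its probe sets was lower there by 0.48 (adjusted p = 0.0181 over all probe sets).

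Among 4 measured members grouped by symbol alone under core branching, the Gcnt genes and B3gnt6, Gcnt3 and Gcnt2 rose with receptor inhibition and fell with the ligand. Gcnt3, the branching enzyme of secreted mucins, gave 1780, 1757 and 1894 untreated, 2651, 2938 and 2802 with inhibitor and 1376, 1308 and 1078 with ligand. The ranges of the 3 groups did not overlap. The inhibitor raised it by 0.62 ± 0.09 (1.54-fold, adjusted p = 6.96e-05), the ligand lowered it by 0.53 ± 0.09 (1.44-fold lower, adjusted p = 6.93e-04), and it was 2.22-fold lower with ligand than with inhibitor (adjusted p = 1.58e-07). Its other probe sets above the filter changed by 0.82 and 0.64 with the inhibitor and by -0.44 and -0.35 with the ligand, the last of them not called (adjusted p = 0.167).

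Gcnt2 makes the branched I antigen of blood groups. It read 706.2, 596.2 and 668.2 untreated, 1035, 1022 and 1101 with inhibitor and 493.7, 482.6 and 440.5 with ligand, again without overlap. It rose by 0.67 ± 0.08 (adjusted p = 1.89e-05) with the inhibitor and fell by 0.46 ± 0.08 (adjusted p = 0.00103) with the ligand. Both calls rest on the brightest of its 5 probe sets, since the mean of all 5 gave 0.26 (adjusted p = 0.138) and -0.29 (adjusted p = 0.148).

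Gcnt1, the branching enzyme best known from leukocytes, was dim. Its signals were 13.7, 36.5 and 18.0 untreated, 60, 48.1 and 50.1 with inhibitor and 26.1, 34.5 and 38.2 with ligand. Inhibitor arrays stood above the others. The rise was 0.87 ± 0.23 (adjusted p = 0.00682). B3gnt6, which starts another core structure of intestinal mucins, ranged from 4.68 to 51.2 over the 9 arrays and was not called in any comparison. Gcnt7 was below the filter.

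Chain extension was covered by 16 measured members that add galactose or N-acetylglucosamine. The inhibitor raised 7 of them, where 21.1% of all genes rose, and the ligand raised 1 and lowered 3, where 14.7% rose and 9.28% fell. After median centring the ligand lowered 4 and after quantile normalization 3, and the 1 rise was no longer called under either. B3gnt7, which lengthens sulfated lactosamine chains, gave 244.5, 220.8 and 216.6 untreated, 298.4, 306.6 and 315.3 with inhibitor and 152.0, 138.8 and 167.8 with ligand. The 3 groups were apart. It rose by 0.41 ± 0.10 with the inhibitor (adjusted p = 0.00396) and fell by 0.53 ± 0.10 with the ligand (adjusted p = 0.00167), a 1.92-fold difference between both treatments.

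B4galt4, a galactosyltransferase of keratan sulfate and glycolipids, read 369.8, 355.9 and 437.9 untreated, 548.2, 508.2 and 557.2 with inhibitor and 282.0, 293.3 and 325.7 with ligand. B4galt5, a lactosylceramide synthase, read 406.8, 434.6 and 398.2, then 588.1, 603.3 and 446.8, then 313.2, 303.0 and 308.1, in the same order. In both genes the inhibitor arrays were highest and the ligand arrays lowest. B4galt4 changed by 0.46 ± 0.09 with the inhibitor (adjusted p = 0.00136) and -0.35 ± 0.09 with the ligand (adjusted p = 0.0163), B4galt5 by 0.38 ± 0.10 (adjusted p = 0.00945) and -0.40 ± 0.10 (adjusted p = 0.0128). Single arrays carry some of these calls. The ligand call of B4galt4 was lost without untreated replicate 3 (adjusted p = 0.0685) or ligand replicate 1 (0.0623). That of B4galt5 was lost without untreated replicate 2 (0.0527), and its inhibitor call without inhibitor replicate 2 (0.0517).

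The other members raised by the inhibitor were B3gnt3, B4galt7, B4galt6 and B4galt1. B3gnt3, which extends O-glycan cores, rose by 0.58 ± 0.10, from 259.1, 280.0 and 289.2 to 385.8, 483.3 and 399.5 (adjusted p = 3.77e-04), with no overlap. B4galt6, also a lactosylceramide synthase, went from 3602, 3463 and 3414 to 4379, 4870 and 4630, a rise of 0.40 ± 0.07 (adjusted p = 4.11e-04). Its ligand arrays, at 3713, 3394 and 3396, overlapped the untreated ones. B4galt1, the widely expressed galactosyltransferase of N-glycans, rose by 0.25 ± 0.09 (adjusted p = 0.0269). B4galt7 builds the linker of heparan and chondroitin sulfate. Its rise of 0.48 ± 0.13 (adjusted p = 0.00969) comes from a probe set that may cross-hybridize, and the other probe set gave 0.19, not called.

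B3gnt5, which starts lacto-series glycolipids, was the member of this step that rose with the ligand. It gave 54.0, 48.5 and 46.8 untreated, 50.4, 53.9 and 50.8 with inhibitor and 74.6, 83.4 and 76.2 with ligand. Ligand arrays lay above both other groups. The rise was 0.52 ± 0.14 (adjusted p = 0.0174). The call was lost without untreated replicate 2 (adjusted p = 0.0511), untreated replicate 3 (0.0509) or ligand replicate 2 (0.0593), and after median centring or quantile normalization.

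Between ligand and inhibitor 4 members of this step were higher and 5 lower, but 0 higher and 9 lower after median centring and 0 higher and 7 lower after quantile normalization. The 4 were B3gnt5, B3galt5, B3galt6 and B4galt2. B4galt2 exceeded the filter level on 3 ligand arrays but on only 1 untreated and 1 inhibitor array. Its higher signal with the ligand is therefore partly what let it pass the filter. B3galt5 makes the precursor chain of Lewis antigens. It read 31.9, 27.7 and 8.38 with inhibitor and 39.6, 43.5 and 48.7 with ligand, a difference of 0.69 ± 0.26 (adjusted p = 0.0358). That call was lost without inhibitor replicate 3 (adjusted p = 0.171) or any ligand array (0.0551 to 0.0882). No filter, quantile normalization and median centring also ended it. B3galt4, B3gnt2, B3gnt9, B3gntl1 and B4galt3 were called in no comparison on their brightest probe set. The second probe set of B3gntl1, with group means of 76.6 untreated, 22.2 with inhibitor and 60.4 with ligand, was lower with the inhibitor (-1.27, adjusted p = 0.00165 over all probe sets) and higher with ligand than with inhibitor (1.03, adjusted p = 0.0045). The brightest one gave -0.02 and -0.10 there. B3gntl1 overlaps the gene Tbcd. Below the filter were B3galt1, B3galt2, B3gnt4 and B3gnt8.

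The B3galnt and B4galnt genes were grouped by symbol alone under N-acetylgalactosamine capping. Of 4 measured members the inhibitor lowered 2, and the ligand lowered 2 and raised 1. B3galnt2, which acts on the glycans of dystroglycan, gave 526.0, 586.8 and 554.7 untreated, 291.8, 280.3 and 313.3 with inhibitor and 667.3, 664.3 and 647.3 with ligand. The groups did not overlap. It fell by 0.88 ± 0.08 with the inhibitor (1.84-fold lower, adjusted p = 1.21e-06) and was 2.17-fold higher with ligand than with inhibitor (adjusted p = 5.84e-08). Its ligand change against untreated, 0.24 ± 0.08 (adjusted p = 0.0334), lost its call without untreated replicate 1 or 3 or ligand replicate 1 or 2 (adjusted p from 0.0738 to 0.125) and after median centring. Quantile normalization, a replicate block and the mean of its probe sets also ended that call. B3galnt2 overlaps the gene Tbce.

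B4galnt4 is a further N-acetylgalactosaminyltransferase. It was called lower with either treatment. Its signals were 693.3, 691.9 and 616.0 untreated, 432.3, 379.3 and 371.8 with inhibitor and 542.6, 502.1 and 578.0 with ligand. Inhibitor arrays were lowest, ligand arrays in between and untreated arrays highest, with no overlap. It changed by -0.74 ± 0.09 with the inhibitor (adjusted p = 1.74e-05) and -0.29 ± 0.09 with the ligand (adjusted p = 0.025). The ligand call was lost without untreated replicate 1 (adjusted p = 0.0905) or 2 (0.089) or ligand replicate 1 (0.0596) or 2 (0.0898).

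B4galnt1, a synthase of complex gangliosides, read 1397, 1368 and 1325 untreated, 1360, 1350 and 1371 with inhibitor and 1002, 954.9 and 1024 with ligand. Ligand arrays lay below both other groups, which overlapped. It fell by 0.45 ± 0.06 with the ligand (adjusted p = 1.62e-04). The mean of its probe sets gave -0.08 (adjusted p = 0.533), and the gene overlaps Slc26a10. B4galnt2, the maker of the Sda antigen of the gut, gave 6432, 7193 and 6480 untreated, 7326, 8396 and 7889 with inhibitor and 6199, 6269 and 7410 with ligand. It was not called against untreated, with changes of 0.23 ± 0.09 (adjusted p = 0.0538) and -0.02 ± 0.09 (adjusted p = 0.905). The other B4galnt2 probe sets were called higher with the inhibitor, by 0.55 (adjusted p = 6.01e-04 over all probe sets) and 0.51 (4.60e-04), and the mean of its probe sets rose by 0.43 (adjusted p = 6.61e-05). Ligand was lower than inhibitor by 0.25 ± 0.09 (adjusted p = 0.0315), a call that was lost without inhibitor replicate 2 (adjusted p = 0.121) or 3 (0.0791) or ligand replicate 1 (0.116) or 2 (0.107). No filter, a 2-group fit and no intensity trend also ended it. B3galnt1 was below the filter.

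Among 5 measured fucosyltransferase genes, Fut2, the secretor enzyme that puts terminal fucose on gut mucins and glycolipids, showed the largest rise of any member with receptor inhibition. Its signals were 15.7, 56.7 and 60.9 untreated, 268.1, 245.8 and 307.1 with inhibitor and 43.4, 47.2 and 76.7 with ligand. Every inhibitor array was far above the others, while untreated and ligand arrays overlapped. The mean went from 44.4 ± 24.9 to 273.7 ± 31.0 (SD, n = 3 each), a change of 2.36 ± 0.28 (5.14-fold, adjusted p = 2.07e-05). With the ligand the change was 0.32 ± 0.28 (adjusted p = 0.458). The Fut2 probe set was the only one of the gene above the filter.

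**Figure D2:**
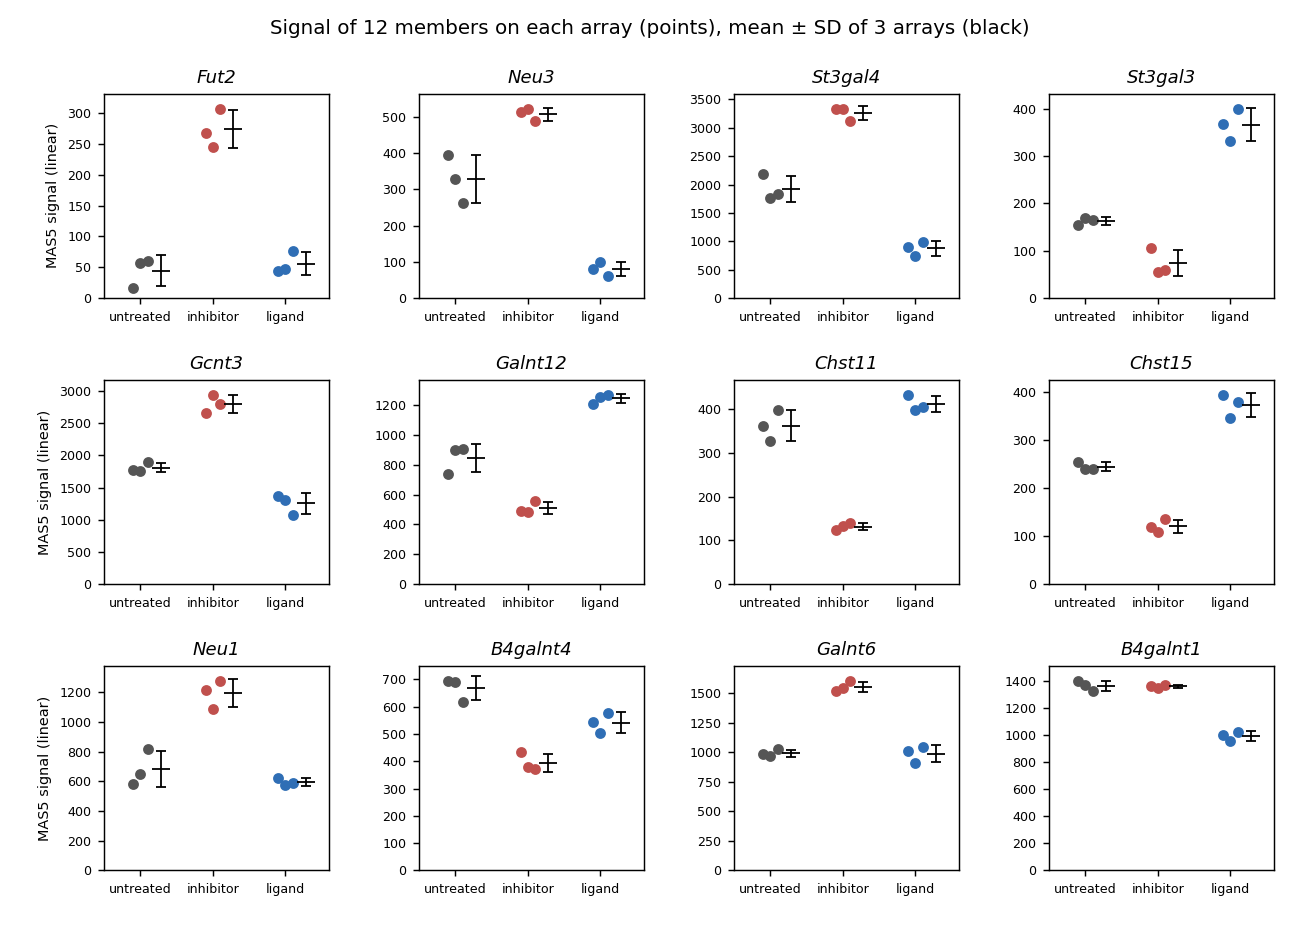
Signals of 12 members on a linear scale from 0, with 1 point per array and black bars for the mean and SD of 3 arrays. Fut2 is high on the inhibitor arrays alone (245.8 to 307.1), Neu3 is low on the ligand arrays (62.1 to 98.7), and St3gal4 and St3gal3 stand in opposite order.

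Fut8 adds the core fucose of N-glycans. It gave 2310, 2314 and 2242 untreated, 2324, 2483 and 2491 with inhibitor and 1667, 1662 and 1737 with ligand. Ligand arrays lay below all others. It fell by 0.44 ± 0.06 with the ligand (1.35-fold lower, adjusted p = 2.25e-04) and changed by 0.09 ± 0.06 with the inhibitor (adjusted p = 0.278).

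Fut11, a fucosyltransferase of the endoplasmic reticulum, rose by 0.45 ± 0.11 with the ligand (adjusted p = 0.00996), from 139.4, 150.2 and 138.9 to 204.6, 206.1 and 191.2. The groups did not overlap, but the call was lost after median centring and after quantile normalization (adjusted p up to 0.0686). With the inhibitor it gave 152.5, 190.1 and 192.3 (0.28 ± 0.11, adjusted p = 0.0505). Ligand against inhibitor was not called for Fut11, although another of its probe sets was higher there by 0.33 (adjusted p = 0.0218 over all probe sets). Fut4, which makes Lewis x structures, was not called against untreated. It was higher with ligand than with inhibitor by 0.31 ± 0.11 (adjusted p = 0.0326), although these arrays overlapped. Leaving out inhibitor replicate 1 or 2 or ligand replicate 2 or 3 ended the call (adjusted p from 0.0787 to 0.116). So did no filter, quantile normalization, median centring and a 2-group fit. Fut4-ps1 is annotated as a pseudogene copy of Fut4, so a signal cannot be assigned between them with certainty, and it was called in no comparison. Fut1, Fut7, Fut9 and Fut10 stayed below the filter, with Fut1 at 3.28 to 19.3.

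Of 12 measured sialyltransferases the inhibitor raised 1 and lowered 3, and the ligand raised 2 and lowered 1. The 4 of 12 called with the inhibitor are a smaller share than the 44.9% of all genes, and the 3 of 12 called with the ligand are near the 24.0% of all genes. St3gal4 and St3gal3 both place sialic acid on terminal galactose and moved in opposite directions in each comparison. St3gal4 gave 2188, 1761 and 1826 untreated, 3337, 3332 and 3126 with inhibitor and 894.1, 739.6 and 994.2 with ligand. St3gal3 gave 154.0, 170.0 and 165.2, then 106.6, 55.6 and 60.1, then 368.4, 332.4 and 400.4, in the same order. In both genes the 3 groups did not overlap.

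St3gal4 rose by 0.76 ± 0.10 with the inhibitor (1.70-fold, adjusted p = 5.94e-05), fell by 1.13 ± 0.10 with the ligand (2.18-fold lower, adjusted p = 8.27e-06) and was 3.70-fold lower with ligand than with inhibitor (adjusted p = 1.00e-08). St3gal3 fell by 1.03 ± 0.17 with the inhibitor (2.05-fold lower, adjusted p = 2.76e-04) and rose by 1.09 ± 0.17 with the ligand (2.14-fold, adjusted p = 4.86e-04). Between both treatments it was 4.37-fold higher with the ligand (adjusted p = 2.77e-07). Its dimmer probe set, with group means of 20.4, 15.1 and 43.1, was also higher with ligand than with inhibitor, by 0.90 (adjusted p = 0.0142 over all probe sets), and was not called against untreated.

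St6galnac2, which sialylates the innermost sugar of O-glycans, read 515.1, 550.4 and 557.1 untreated, 454.4, 427.9 and 401.2 with inhibitor and 875.4, 803.0 and 849.0 with ligand, with no overlap. It fell by 0.33 ± 0.07 with the inhibitor (adjusted p = 0.00286) and rose by 0.62 ± 0.07 with the ligand (1.54-fold, adjusted p = 5.99e-05). St3gal6, another sialyltransferase for terminal galactose, was lowered by the inhibitor, from 1425, 1470 and 1568 to 1087, 1099 and 1043. The fall was 0.46 ± 0.07 (adjusted p = 7.82e-05), but the mean of its 4 probe sets gave -0.18 (adjusted p = 0.0847), and the gene overlaps Dcbld2. Its ligand arrays, at 1431, 1432 and 1337, overlapped the untreated ones.

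St6gal1, the sialyltransferase of N-glycans, ranged from 35.2 to 61.9 over the 9 arrays. St6galnac1, which makes sialyl-Tn in goblet cells, ranged from 46.4 to 93.6. Both were called in no comparison, nor were St3gal1, St6galnac5, St8sia2 and St8sia5. St3gal5, which makes the simplest ganglioside, was lower with ligand than with inhibitor by 0.69 ± 0.21 (adjusted p = 0.0125). Without inhibitor replicate 1 that difference was 0.55 lower and not called (adjusted p = 0.0642). St6galnac6 exceeded the filter level on the 3 ligand arrays alone, at 30.2, 52.1 and 38.4, so its signal there is what made it a member. Its difference over inhibitor, 0.72 ± 0.24 (adjusted p = 0.0229), lies in the direction that selected it. It is therefore no separate result, though it counts among the 17 members higher with ligand than with inhibitor. That call was lost without inhibitor replicate 1 (0.0706) or 2 (0.0721) or ligand replicate 2 (0.0954), and after median centring. Another 8 sialyltransferases were below the filter, among them St3gal2, St6gal2 and St8sia1.

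All 3 sialidase genes with a probe set here passed the filter and changed. Neu3, the plasma membrane sialidase that prefers gangliosides, gave 395.0, 329.7 and 263.2 untreated, 513.2, 523.2 and 488.5 with inhibitor and 80.7, 98.7 and 62.1 with ligand. The ligand arrays lay far below the untreated and the inhibitor arrays above them. It fell by 1.84 ± 0.15 with the ligand (3.58-fold lower, adjusted p = 3.60e-06), the largest ligand change of any member, and rose by 0.62 ± 0.15 with the inhibitor (adjusted p = 0.00447). Ligand and inhibitor differed 5.50-fold (-2.46 ± 0.15, adjusted p = 2.55e-08).

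Neu1 is the lysosomal sialidase. Its signals were 584.8, 647.5 and 817.0 untreated, 1216, 1087 and 1273 with inhibitor and 620.4, 572.2 and 591.0 with ligand. Inhibitor arrays were above all others, and the remaining groups overlapped. It rose by 0.80 ± 0.11 with the inhibitor (1.74-fold, adjusted p = 4.58e-05), and a second probe set gave 0.73. The ligand change was -0.18 ± 0.11 (adjusted p = 0.247).

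Neu2, the cytosolic sialidase, went the other way, with 69.7, 71.4 and 84.3 untreated, 40.7, 51.7 and 38.9 with inhibitor and 114.5, 103.5 and 113.2 with ligand. No group overlapped another. It fell by 0.61 ± 0.14 with the inhibitor (adjusted p = 0.00358) and was 2.12-fold higher with ligand than with inhibitor (adjusted p = 2.64e-05). Its rise with the ligand, 0.47 ± 0.14 (adjusted p = 0.0291), lost its call without untreated replicate 1 (adjusted p = 0.0968) or 2 (0.0875) or ligand replicate 1 (0.0864) or 3 (0.0677), and after median centring. No filter and quantile normalization also ended that call.

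Only 4 of 14 carbohydrate sulfotransferases passed the filter, and the 2 that changed belong to chondroitin sulfate. With quantile normalization the inhibitor lowered these 2 and raised the other 2, Chst4 and Chst14. Chst11, which sulfates chondroitin, gave 361.2, 327.2 and 397.0 untreated, 122.9, 131.9 and 139.1 with inhibitor and 432.0, 398.1 and 404.2 with ligand. Chst15, which adds a further sulfate to the same chains, gave 254.7, 238.6 and 238.5, then 118.7, 108.2 and 134.5, then 392.9, 345.2 and 379.0. Inhibitor arrays were lowest in both, with no overlap between any groups.

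Chst11 fell by 1.36 ± 0.10 with the inhibitor (2.56-fold lower, adjusted p = 2.22e-07), the largest fall of a member there. Its ligand change was 0.18 ± 0.10 (adjusted p = 0.195), and ligand exceeded inhibitor 2.90-fold. Chst15 fell by 0.93 ± 0.10 with the inhibitor (1.91-fold lower, adjusted p = 8.05e-06), rose by 0.58 ± 0.10 with the ligand (adjusted p = 0.00107) and was 2.85-fold higher with ligand than with inhibitor. Its other probe set fell by 0.91 with the inhibitor, while its ligand change was 0.15 and not called, and the mean of both gave a ligand change of 0.36 (adjusted p = 0.0578). Chst4, which sulfates N-acetylglucosamine on mucins, ranged from 140.1 to 283.1 and was called in no comparison, as was Chst14, a dermatan sulfotransferase. Chst5 and 9 other sulfotransferases stayed below the filter.

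**Figure D3:**
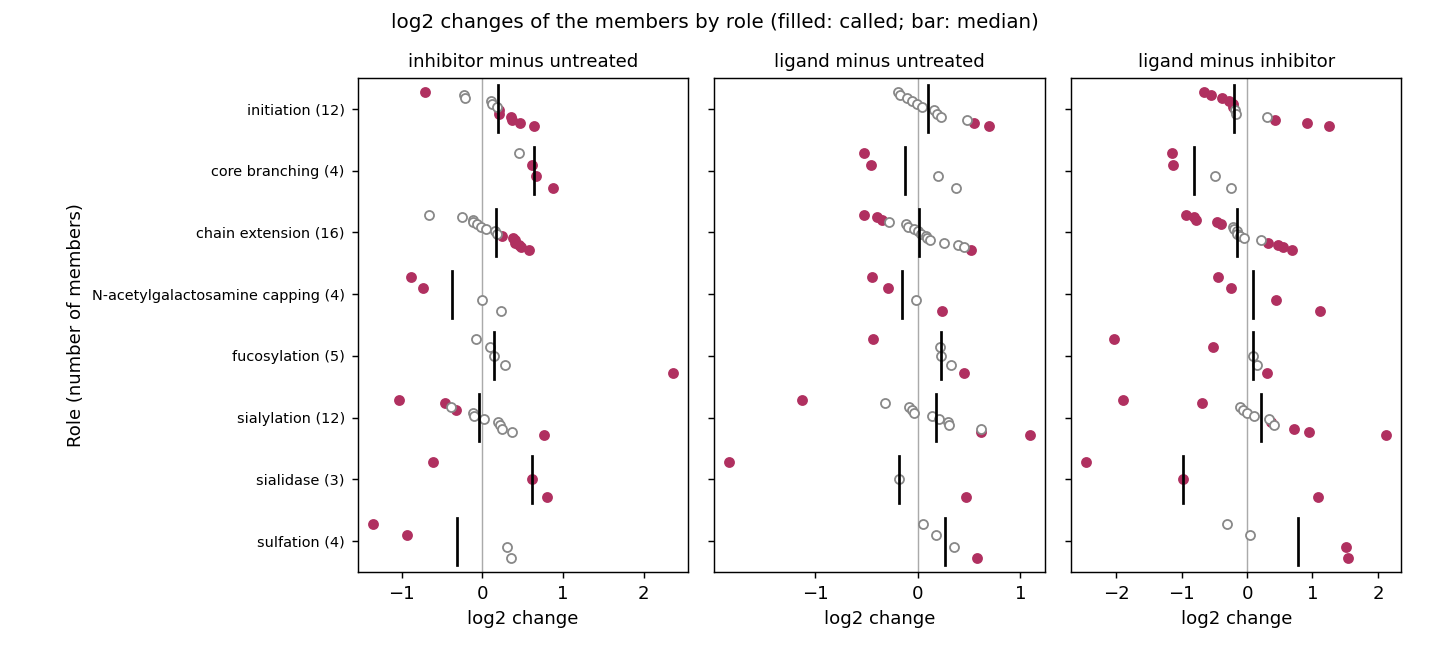
Each point is 1 member, placed by its log2 change in 1 of 3 comparisons and by the role assigned from its symbol. Filled points were called at adjusted p under 0.05, open points were not, and black bars mark the median of each role. Core branching lies to the right for inhibitor minus untreated (median 0.65) and to the left for ligand minus inhibitor (median -0.81).

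The sum of both changes from untreated is 0 where the treatments move a gene equally in opposite directions. It was called for 17 members, 28.3%, against 23.6% of all genes, with 10 above 0 and 7 below. Above 0 were Fut2, Gcnt1, B4galt7, Fut11, B3gnt3, Galnt11, Galnt6, Neu1, Galnt3 and B4galt6, led by Fut2 at 2.68 ± 0.49 (adjusted p = 0.00174). Below 0 were Neu3, Chst11, B4galnt4, B3galnt2, St3gal6, B4galnt1 and Fut8. Neu3 had -1.22 ± 0.26 (adjusted p = 0.00465) and Chst11 -1.18 ± 0.16 (adjusted p = 2.73e-04), the one with its larger change under the ligand and the other under the inhibitor. For St3gal3 the sum was 0.06 ± 0.30 (adjusted p = 0.911), for Gcnt3 0.09 ± 0.15 (0.714) and for B4galt5 -0.03 ± 0.18 (0.938). The count was 11 after median centring and 9, of which 3 above 0, without untreated replicate 1.

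Other genes of the pathway were taken from lists described by counts and medians alone. Beside them stand the shares over all genes, 21.1% higher and 23.9% lower with the inhibitor and 14.7% and 9.28% with the ligand, and the all-gene medians of -0.01 and 0.05. Among 36 measured genes of sugar nucleotide supply the inhibitor raised 14 and lowered 8, and the ligand raised 2 and lowered 13, with median changes of 0.08 and -0.11. Npl, which breaks down free sialic acid, gave 419.4, 422.1 and 428.1 untreated, 1692, 1832 and 1651 with inhibitor and 224.2, 257.0 and 271.9 with ligand. It rose by 1.99 ± 0.08 (adjusted p = 4.27e-09) and fell by 0.72 ± 0.08 (adjusted p = 3.68e-05), with no overlap. The transporters Slc35d1 and Slc35d2, which carry nucleotide sugars into the secretory pathway, rose by 0.91 and 0.85 with the inhibitor and fell by 0.45 and 0.54 with the ligand. Slc35c1, the GDP-fucose transporter, and Fpgt, a GDP-fucose enzyme of the salvage route, rose by 0.62 and 0.68 with the inhibitor, while Gfus and Gmds, which make GDP-fucose anew, were not called in any comparison. Of the sialic acid makers, Gne, Nans and Nanp fell by 0.27, 0.24 and 0.31 with the inhibitor and Cmas, which activates sialic acid, rose by 0.30. Papss1 and Papss2, which make the sulfate donor, fell by 0.36 and 0.51 with the ligand.

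Of 24 measured transferases outside the symbol rule the inhibitor raised 9 and lowered 6, and the ligand raised 7 and lowered 1. C1galt1 and its chaperone C1galt1c1, which make the common core of O-glycans, rose by 0.47 ± 0.13 and 0.32 ± 0.07 with the inhibitor. Ugcg, the enzyme that starts most glycolipids, rose by 1.02 ± 0.09 (adjusted p = 1.83e-06). Lfng, the fringe enzyme that modifies Notch, fell from 151.8, 212.0 and 170.2 to 32.9, 44.0 and 44.3 with the inhibitor (-1.78 ± 0.16, adjusted p = 1.53e-06) and rose to 409.5, 282.0 and 355.8 with the ligand (0.91 ± 0.16, adjusted p = 0.00103). A4gnt, which caps gland mucins, fell by 0.65 and rose by 0.73.

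Among 24 measured genes of heparan and chondroitin sulfate chains the inhibitor raised 5 and lowered 1, and the ligand raised 6 and lowered none. Glce, the epimerase of heparan sulfate, was the one lowered, by 0.58 ± 0.07, and Sulf2, which removes sulfate from those chains at the cell surface, rose by 0.66 ± 0.08. With the ligand Chsy1, a chondroitin synthase, rose by 0.45 ± 0.12 (adjusted p = 0.0194). Of 6 measured mucins, Muc3, a membrane mucin of enterocytes, gave 4507, 4565 and 4594 untreated, 8037, 9716 and 9458 with inhibitor and 2275, 2191 and 2588 with ligand. It rose by 0.99 ± 0.09 and fell by 0.95 ± 0.09. Muc13 rose by 0.35 ± 0.10 with the inhibitor. Muc2, the secreted mucin of goblet cells, changed by -0.18 ± 0.08 (adjusted p = 0.0703) and -0.06 ± 0.08 (adjusted p = 0.646).

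All 18 genes of lysosomal glycan degradation on the array were measured, and the inhibitor raised 10 and lowered 1, with a median change of 0.30, where 21.1% of all genes rose, 23.9% fell and the median was -0.01. The ligand raised 4 and lowered 3, with a median of 0.12, where 14.7% of all genes rose and 9.28% fell. Fuca2 and Manba, which remove fucose and mannose, each rose by 1.06 with the inhibitor. Ctsa, the protective protein that holds Neu1 in its lysosomal complex, rose by 0.59 ± 0.08 with the inhibitor (adjusted p = 4.00e-05) and fell by 0.33 ± 0.08 with the ligand (adjusted p = 0.00808). Glb1, the galactosidase of the same complex, rose by 0.56 ± 0.10 with the inhibitor. Arsa, which removes sulfate from sulfatide, changed by -0.73 with the inhibitor and -0.54 with the ligand, both called lower.

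**Figure D4:**
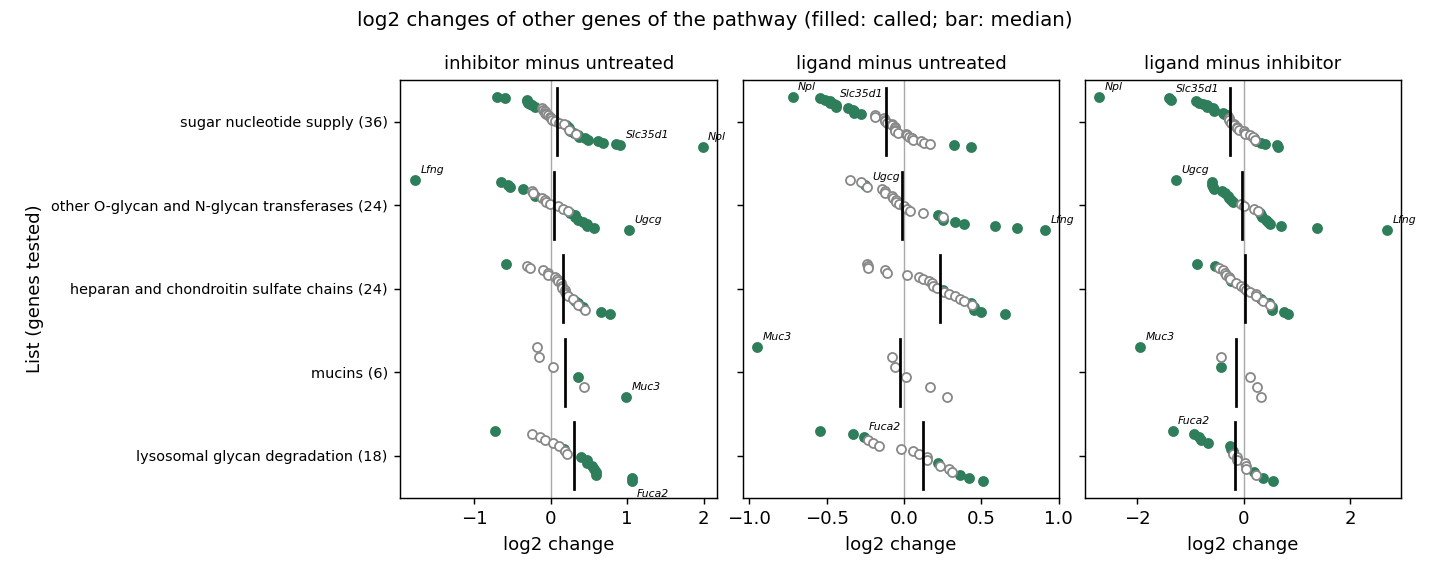
Each point is 1 gene of a list outside the symbol rule, placed by its log2 change in 1 of 3 comparisons. Filled points were called at adjusted p under 0.05, and black bars mark list medians. Npl (1.99), Ugcg (1.02) and Fuca2 (1.06) stand at the right for inhibitor minus untreated, and Lfng (-1.78) at the left.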

How the data were processed

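RNA was extracted with the miRNeasy kit, amplified and biotin-labelled with a 3′ in vitro transcription kit and hybridised to mouse expression arrays, per the labels. The authors deposited a linear signal intensity per probe set, made with the MAS5 algorithm per the submitters' processing notes, with its version not given in the sources used here. Its 2% trimmed mean was the same on every array. Of 45101 probe sets, 64 were controls, 34945 had 1 gene symbol in the platform annotation, 932 had several and 9160 were unnamed here, and probe sets with several symbols or none were left out. All 60 members were matched to RefSeq by gene ID.

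From there, log2(signal + 16) was fitted with limma 3.58.1 in R 4.3.3, with 1 mean per group over all 9 arrays, 6 residual degrees of freedom and an intensity trend. Tests were two-sided and adjusted by Benjamini-Hochberg over 12941 genes. Each gene was represented by its brightest probe set above the filter, while single probe sets named as such carry p-values adjusted over 23888 probe sets. The scripts were tested on simulated data. With 3 arrays per group their number limits the precision.

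Genes were chosen for fuller description if among the 10 largest called changes in each direction and comparison or called in both comparisons with untreated. The 3 brightest and a list of well-known members were added. Gcnt4, on that list, was not analysed here. Some chosen genes, such as Galnt3, Galnt4, Fut4, B4galt7 and St3gal5, are given by their changes without the signal of each array, and others by a range. The members, the pathway and marker lists and these rules were chosen with earlier results of these data known. The alternatives tried were other offsets, filters, scalings, probe-set rules, variance models and array sets. The labels' replicate numbers were not used as pairs in the main fit.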

Additional observations from a re-analysis of the deposited data

How the results depend on the processing

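The alternatives were fixed offsets of 1 and 64, no filter or a 60th percentile filter, quantile normalization, median centring, a 2-group fit (which gives no value for the sum of both changes), a replicate block, no intensity trend, 2 other probe-set rules and leaving out each of 9 arrays, 20 in all. Leaving out 1 array gave 26 to 30 called members for inhibitor against untreated (29 with all arrays), 15 to 20 for ligand against untreated (19), 31 to 39 for ligand against inhibitor (38) and 9 to 16 for the sum of both changes (17). The sum fell to 11 called members after median centring and to 9 without untreated replicate 1, and the other counts stayed within 1.5 times. The share of higher among called members for ligand against untreated was 47.4%, and it was 29.4% after median centring, 33.3% after quantile normalization and 35.3% with the 60th percentile filter (6 higher, 11 lower). For ligand against inhibitor it was 44.7%, 26.3% after median centring and 31.4% after quantile normalization. The replicate block gave 30, 18, 38 and 17 calls. Same-numbered arrays did not deviate together over all genes (correlations of -0.08 to 0.08). These correlations do not show how the replicates were made. Of 77 called results among 40 members, 52 kept their call and direction under every alternative that tested them, and 25 lost the call under at least 1. Dim members such as Gcnt1 and Neu2 did not pass the 60th percentile filter and had 19 alternatives. The difference of Galnt3 between ligand and inhibitor changed from -0.21 to 0.22 with the mean of its probe sets, one of which was higher with the ligand by 1.13. In 18 results that were not called, 50 alternative values had the other sign and were not called either. Signals near the filter level limit dim genes such as Gcnt1, B3gnt6 and St6galnac6, whose changes are understated by the offset. Causes of lost calls were not tested.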
